A study of Mus musculus with 4 samples.

Results

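Histone genes were compared with the binding sites of HA-tagged human WDR5 (HA-hWDR5) in mouse embryoid bodies. The members were all 78 protein-coding core and linker histone genes of the RefSeq annotation, out of 21887 protein-coding genes. Of these, 74 were found by symbol and 4 (H2aw, H2bu2, H4f16 and H4bc24) by an older Hist name among their synonyms. They comprise 10 genes for H1, 21 for H2A, 18 for H2B, 16 for H3 and 13 for H4. H4bc24 was placed with H2B, as its older name Hist1h2br gives it. Binding was read from peak lists, and a peak was assigned to a gene when its summit lay within 1 kb of either gene end. Such a peak is a boundary peak below.

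The embryonic stem cells carried an Rx:GFP knock-in, were labelled Wdr5 KO and had a doxycycline-inducible HA-hWDR5. Differentiation followed SFEBq, in medium with 5% KSR to which 2% Matrigel was added on day 1, and the embryoid bodies were profiled at day 6. All libraries came from material fixed with 2 uM DSG for 30 min and 1% PFA for 10 min. Each ChIP used 15 ug of antibody. Doxycycline was added at T12h in the first group and at T48h in the second (the starting point of these hours is not given in the sources used here). Each group had 1 anti-HA ChIP library and 1 input library. Neither list had a boundary peak at Wdr5, and a peak list does not show whether the mouse gene was lost. Whether the cells are 1 clone is not given in the sources used here. After duplicate removal 55539917 ChIP tags remained at T12h and 67116740 at T48h, from which 1197 and 660 peaks were deposited. With a single ChIP library at each time, no difference between the times has a replicate check.

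WDR5 is a shared subunit of the MLL and SET1 complexes, which methylate lysine 4 of histone H3 at active promoters. H3, the substrate of these complexes, is encoded by 16 of the members. Replication-dependent histone genes lie in dense clusters, have no introns, are transcribed mainly in S phase, and make mRNAs that end in a stem-loop instead of a poly(A) tail. Many H2A and H2B genes stand head to head and share the short stretch between their starts. Replacement histones such as H3.3, H2A.Z and H2A.X are mostly encoded by separate genes outside the clusters.

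The peaks at histone genes lay at 3 pairs on chromosome 13, each an H2A gene or pseudogene next to an H2B gene. H2ac14/H2bc14 lies in a different cluster from the other pairs. H2ac7/H2bc7 and H2ac8/H2bc8 stand head to head, while the tables used here give no strand for H2ac14. For each pair, the DNA between the paired genes is shown so that their promoters can be compared. Each run is read 5′ to 3′ towards the H2A gene or pseudogene, from RefSeq sequence of GRCm38.p6 (mm10), with the searched promoter motifs in capitals.
H2ac7/H2bc7: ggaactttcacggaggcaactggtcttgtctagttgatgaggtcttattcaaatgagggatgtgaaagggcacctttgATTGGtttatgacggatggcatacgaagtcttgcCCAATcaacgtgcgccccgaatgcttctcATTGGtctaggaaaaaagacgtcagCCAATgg
H2ac8/H2bc8: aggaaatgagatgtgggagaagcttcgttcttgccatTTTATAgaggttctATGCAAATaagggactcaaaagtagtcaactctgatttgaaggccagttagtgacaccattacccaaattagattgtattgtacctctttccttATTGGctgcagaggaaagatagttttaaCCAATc
H2ac14/H2bc14: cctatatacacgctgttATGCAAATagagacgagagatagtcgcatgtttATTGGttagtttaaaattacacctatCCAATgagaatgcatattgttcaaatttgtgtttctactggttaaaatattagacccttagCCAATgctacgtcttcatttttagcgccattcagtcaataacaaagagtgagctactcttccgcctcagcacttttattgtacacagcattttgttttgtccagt

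The H2ac7/H2bc7 stretch is chr13:23574208-23574380 on the plus strand, H2ac8/H2bc8 is chr13:23571221-23571399 on the minus strand, and H2ac14/H2bc14 is chr13:21721802-21722043 on the minus strand. The H2ac14/H2bc14 stretch is shown on the strand opposite to H2bc14. H2ac14 is annotated as a pseudogene and is not among the members. CCAAT, the box bound by NF-Y, occurs 4 times in the first stretch, 2 times in the second and 3 times in the H2ac14/H2bc14 stretch, counting both strands. ATGCAAAT, the octamer bound by OCT1 and known from H2B promoters, occurs once in the second and once in that of H2ac14/H2bc14. TATAAA occurs in the second alone, on the strand that leads to H2bc8, and begins 43 bp before the annotated start of that gene. In the first pair TATAAA begins 30 bp after the annotated start of H2ac7, outside the stretch shown. Global alignment with gaps gave 57.4% identity between the first and second stretches, per aligned column. Against that of H2ac14/H2bc14 it gave 46.6% for the first and 47.8% for the second. Unrelated stretches were not aligned, so these values have no background beside them and do not show shared promoter sequence.

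At T48h, 2 peaks lay at histone genes, and both were inside H2A genes of the same cluster. The first peak (chr13:23570819-23571060, 242 bp) lay wholly within H2ac8, a gene of 558 bp. It held 23 tags, with a fold over local background of 6.75, a score of 55.23 and a deposited false discovery rate of 13.64%. The score is the authors' own measure from MACS (10 times the negative log10 of its p-value), so that a higher score is a smaller p, and the lowest score in the T48h list was 50.02. Its summit was 279 bp downstream of the annotated H2ac8 start and 459 bp upstream of the start of H2bc8.

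The second T48h peak (chr13:23574461-23574780, 320 bp) lay wholly within H2ac7, a gene of 535 bp. It held 33 tags, with a fold of 4.74, a score of 55.87 and a false discovery rate of 13.49%. Its summit was 192 bp downstream of the H2ac7 start and 366 bp upstream of the start of H2bc7. These peaks lay 3.63 kb apart, so the 4 genes with a boundary peak at T48h form 1 site with neighbouring peaks rather than 4 separate places.

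At T12h, 1 peak lay at a histone gene. It (chr13:21721480-21721758, 279 bp) lay wholly within the pseudogene H2ac14, in the first histone cluster of chromosome 13, and is counted through H2bc14, whose start is 439 bp from the summit. The peak held 24 tags, with a fold of 7.02, a score of 56.0 and a false discovery rate of 7.14%. All 3 peaks at histone genes thus lay within a gene or pseudogene of the H2A class, and none overlapped the stretch between the paired genes. The replication-dependent H2A genes are close copies of each other, and tags of 50 bp at T12h and 49 bp at T48h can match more than 1 copy. How such tags were placed is not given in the sources used here, and their part in these peaks was not tested.

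**Figure D1:**
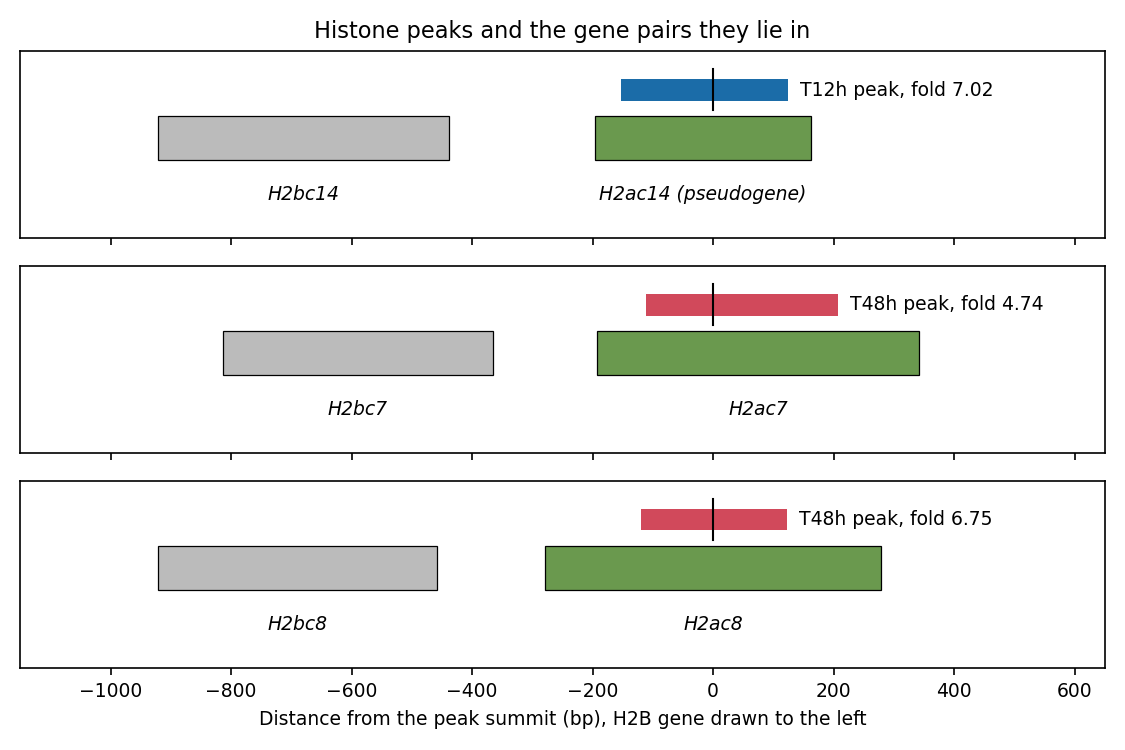
Map of the 3 histone peaks, with the x axis giving the distance from each peak summit in bp and the H2B gene drawn to the left. Coloured bars are peaks (blue T12h, red T48h), green boxes the H2A gene or pseudogene, grey boxes the H2B gene, and the black line the summit; each peak sits wholly inside the green box.

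In number, 1 of 78 histone genes had a boundary peak at T12h (1.28%, exact binomial 95% interval 0.0325 to 6.94), where 2.93% of all protein-coding genes had one. At T48h the count was 4 of 78 (5.13%, 1.41 to 12.6), against 1.06% of all protein-coding genes. The intervals cover counting error only, and treat genes as separate although the 4 genes share 2 peaks. Counted as peaks, histone genes had 1 of the 566 boundary peaks of protein-coding genes at T12h (0.177%) and 2 of 197 at T48h (1.02%). Histone genes are short and crowded, so the regions searched around them came to 175.3 kb. This gives 5.7 peaks per Mb at T12h and 11.4 at T48h, against 7.14 and 2.49 per Mb around all protein-coding genes. The T12h share was thus below the background and the T48h share above it, but the values rest on 1 and 2 peaks.

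No histone boundary peak was shared between the times. From the T12h peak at H2ac14 the nearest T48h summit was 210 kb away, and from the T48h peaks at H2ac8 and H2ac7 the nearest T12h summit was 1630 kb away. The lists give no tag count where no peak was found, so the level at these sites at the other time is not known. Of the T48h boundary peaks, 159 overlapped a T12h peak and 38 did not. The unshared ones had a median score of 57.49 and a median fold of 6.51, and the shared ones 223.3 and 9.32. The histone peaks had scores of 55.23 and 55.87, below the median of the unshared peaks. Of their folds, 6.75 in H2ac8 was above that median and 4.74 in H2ac7 below it.

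By score, the 3 histone peaks stood in the lower part of their lists, while by fold they ranged from near the middle to near the end. At T12h the peak in H2ac14 was 939th by score and 674th by fold of 1197 peaks. Among the T48h peaks, that in H2ac7 was 467th by score and 592nd by fold of 660, and that in H2ac8 was 483rd and 426th. Only 21.6% of T12h peaks had a lower score than the H2ac14 peak, and 29.2% and 26.7% of T48h peaks a lower one than those in H2ac7 and H2ac8. By fold, 43.4% of T12h peaks were lower than the H2ac14 peak, and 10% and 34.2% of T48h peaks lower than those in H2ac7 and H2ac8. The peaks in H2ac14, H2ac7 and H2ac8 held 86, 103 and 95 tags per kb of their length, against medians of 101 and 111 over all peaks of T12h and T48h. Restricting the lists to their upper 50% by score, or to peaks with a deposited false discovery rate of at most 5%, left 0 histone genes at either time. Both outcomes follow from the ranks and rates of the 3 peaks and are not separate results. The share of all protein-coding genes under these cuts was not computed, so these counts have no background beside them. The median false discovery rate over all peaks was 3% at T12h and 9.625% at T48h, so the 5% cut removed most T48h peaks.

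**Figure D2:**
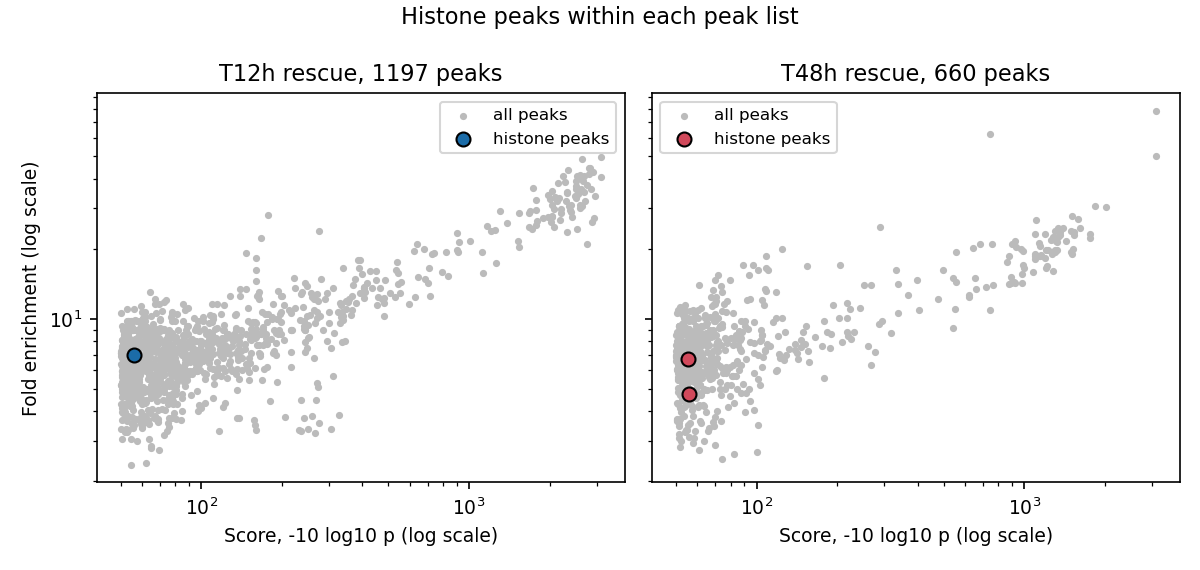
Each grey point is a peak, with the authors' score on the x axis and the fold over local background on the y axis, both on log scales, for T12h (left, 1197 peaks) and T48h (right, 660 peaks). The large points are the histone peaks, which sit at the low-score end with scores between 55.23 and 56.0.

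The position of the summits was set beside that of all boundary peaks, histone ones included, that lay within 1 kb of a protein-coding start in the RefSeq promoter table. At T48h the median summit of 149 such peaks was 138 bp downstream of the nearest start, with quartiles at -49 and 241 bp. The summits in H2ac7 and H2ac8, at 192 and 279 bp downstream, lay above that median, and that in H2ac8 above the upper quartile. At T12h the median of 440 peaks was 65 bp downstream. Summits downstream of the nearest start made up 67.8% at T48h, those in H2ac7 and H2ac8 among them, and 60.5% at T12h, where the summit in H2ac14 lay 439 bp upstream of the start of H2bc14.

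By class, the peaks at T48h gave 2 of 21 H2A and 2 of 18 H2B genes, where 1.06% of all protein-coding genes had a boundary peak, and at T12h 1 of 18 H2B genes, where 2.93% had one. The linker histone H1, H3 and H4 genes had no boundary peak at either time. For so few genes (10, 16 and 13), having none does not set them apart from these background shares. The H2A and H2B counts rest on 2 peaks at T48h and 1 at T12h. H3c4, which encodes H3, came closest to the limit at T48h, with its start 1190 bp from the summit in H2ac7. The other members nearest to a T48h summit without a boundary peak were H4c4 (6995 bp), H3c6 (8556 bp), H2bc6 (9097 bp) and the H1 gene H1f3 (15134 bp). All of these distances run to the peaks in H2ac7 and H2ac8. At T12h the nearest members without a boundary peak were H3c10 (3490 bp), H2ac13 (4746 bp), H2bc13 (5422 bp) and H4c11 (13429 bp), all measured to the H2ac14 peak, and H2az2 (11352 bp).

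**Figure D3:**
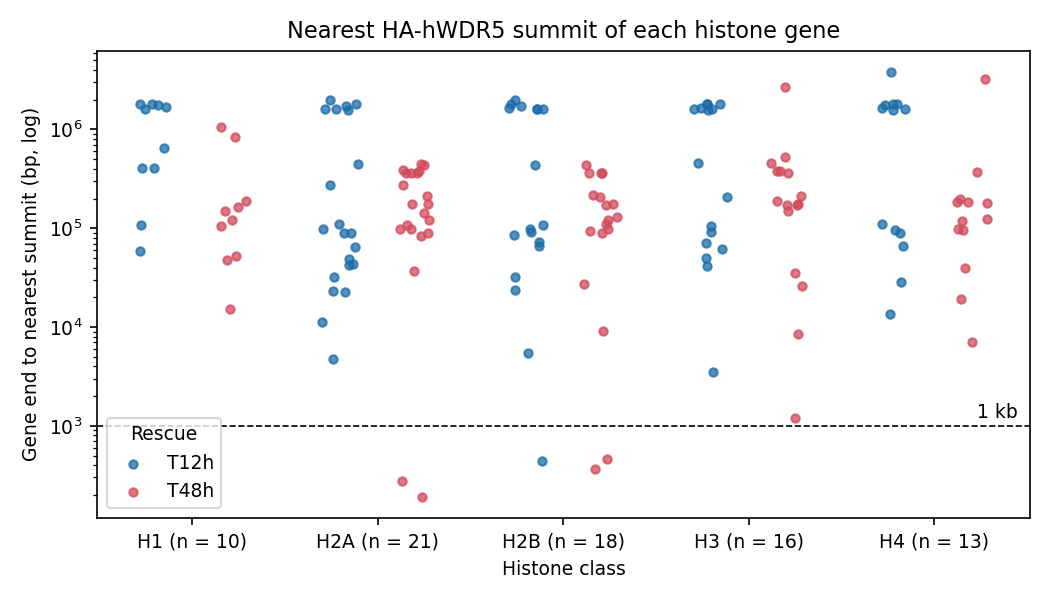
Distance in bp (log scale) from the nearer end of each of the 78 histone genes to the nearest summit, by histone class, with T12h in blue and T48h in red. The dashed line is the 1 kb limit; under it lie 1 H2B gene at T12h and 2 H2A and 2 H2B genes at T48h.

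Most histone genes had no summit within 100 kb. The distance to the nearest summit ranged from 0.439 to 3820 kb at T12h with a median of 242 kb, and from 0.192 to 3270 kb at T48h with a median of 167 kb. Within 10 kb of a summit there were 4 members at T12h and 8 at T48h, and within 100 kb there were 33 and 26. Clustered members share these summits: 1 peak at T12h and 2 at T48h lay within 10 kb of a member, and 7 and 6 within 100 kb. The share of all protein-coding genes at these distances was not computed, so the member counts have no background beside them.

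The first cluster on chromosome 13 spans 328 kb with 23 members, and held 2 peaks at each time. Besides the T12h peak in H2ac14, these were a peak at the zinc finger gene Zfp184, 89.9 kb from H2ac12 and found at both times, and a T48h peak in a tRNA gene. The second cluster on chromosome 13 spans 404 kb with 31 members, and held 0 peaks at T12h and, at T48h, the 2 peaks in H2ac7 and H2ac8. No summit lay within the cluster of chromosome 3, with 10 members in 50.3 kb, or that of chromosome 11, with 3 members in 13.4 kb.

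Of the head-to-head H2A and H2B pairs among the members, 10 had both strands in the promoter table and a gap of at most 1 kb. The gaps ran from 163 to 280 bp with a median of 203.5 bp. The H2ac7/H2bc7 and H2ac8/H2bc8 gaps, at 173 and 179 bp, lie in the lower part of this range. These pairs are neighbours, and each had a T48h peak that lay inside the H2A gene and not in the gap. The other 8 pairs had none at either time, and a link between gap and peak was not tested. Among the 8 is H2bc13/H2ac13, which lies 4.75 kb from the T12h peak in H2ac14.

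Replacement histone genes had no boundary peak at either time, where 2.93% of all protein-coding genes had one at T12h and 1.06% at T48h. For so few genes, having none does not set them apart from these shares. H3f3a and H3f3b, which encode H3.3, were 90.9 and 105 kb from the nearest T12h summit and 530 and 173 kb from the nearest T48h summit. H2az1 and H2az2, which encode H2A.Z, were 277 and 11.4 kb away at T12h and 277 and 84.2 kb at T48h. The T12h peak near H2az2 lay at the boundary of Ppia, a cyclophilin gene, with a fold of 7.41. H2ax, whose product is phosphorylated at DNA breaks, was 43.2 kb from a T12h summit and 437 kb from a T48h summit. The linker histone genes H1f0 and H1f10 were 411 and 646 kb away at T12h and 1050 and 52.7 kb at T48h.

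The members' promoters were searched for motifs in the 300-base window of the RefSeq promoter table, 250 bases before to 50 after the start, which matched 72 of the 78 members with 73 windows. CCAAT was present in 82.2% of the member windows (60 of 73) against 37.4% of all 32851 windows, on either strand. TATAAA was present in 50.7% against 13.6%. The octamer ATGCAAAT was present in 20.5% (15 windows) against 1.74%. TTTCGCGC, a form of the E2F site of S-phase genes, was present in 12.3% (9 windows) against 0.323%, and TTTGGCGC, another form, in 0 against 0.514%. GGGCGG, the GC box, was present in 39.7% against 35.7%. The E-box CACGTG, to which MYC binds, and its variant CATGTG were each found in 1 member window (1.37%), against 7.15% and 14.2% of all windows. Paired genes share much of their windows, so the member windows are not independent, and a match is a stretch of letters and not a measured binding site.

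Among the genes with a peak, H2ac7 and H2bc7 had 4 CCAAT, 1 TATAAA, 1 TTTCGCGC and 1 GGGCGG in their windows. H2ac8 and H2bc8 had 2 CCAAT, 1 TATAAA and 1 ATGCAAAT, and H2bc14 had 3 CCAAT and 1 ATGCAAAT. None of these windows held CACGTG or CATGTG. Apart from CCAAT, no motif searched was present at all 3 sites. The windows of paired genes overlap, so 1 copy of a motif can be counted for both genes. For H2bc7 and H2ac8, TATAAA lay on the strand opposite to the gene, at -209 and -142 bp from the start. TTTCGCGC and GGGCGG did not occur in the stretch between H2ac7 and H2bc7.

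Genes that make or handle histones were counted in the same way. Of 21 genes for histone mRNA production, 2 had a boundary peak at T12h (9.52%, exact binomial 95% interval 1.17 to 30.4) and 1 at T48h (4.76%, 0.12 to 23.8), against 2.93% and 1.06% of all protein-coding genes. Ncbp1, which encodes the large subunit of the nuclear cap-binding complex, had overlapping peaks at both times, with folds of 10.5 and 5.2 and 43 and 26 tags. That peak also lies at Tstd2. Pou2f1, which encodes the octamer-binding factor OCT1, had a T12h peak with a fold of 7.83 and 54 tags. No boundary peak was found at Npat, the S-phase activator of histone genes, or at Slbp, which binds the stem-loop of histone mRNA.

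Histone chaperone and deposition genes numbered 30, of which a different gene had a peak at each time, 1 at T12h and 1 at T48h. Nap1l4, which encodes a chaperone of H2A and H2B, had a T12h peak with a fold of 8.24 and 21 tags. Asf1b, which encodes a chaperone of H3 and H4, had a T48h peak with a fold of 3.99 and 48 tags. Their scores were 52.85 and 52.38, and they ranked 1071st of 1197 and 563rd of 660 by score, below the histone peaks of the same time. Of 28 genes for WDR5 complexes and partners, Phf20 had a T12h peak (fold 7.94) and Mycn a T48h peak (fold 9.15). Histone-fold variants outside the list, such as Macroh2a1 and Cenpa, had a boundary peak in 0 of 12 at either time (upper end of the interval 26.5%). At each time 3.33% of the chaperone genes (exact binomial 95% interval 0.0844 to 17.2) and 3.57% of the WDR5 complex genes (0.0904 to 18.3) had a peak, against 2.93% of all protein-coding genes at T12h and 1.06% at T48h. Each of these shares rests on 1 gene.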

How the data were processed

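Each anti-HA ChIP library was deposited as 1 peak list, called by MACS 1.4.2 against 1 control library after duplicate removal with a p cutoff of 1e-05, per the file headers. The submitters' processing notes list the build mm10 and the tools deepTools, HOMER 4.9.1, SAMtools 1.5 and Bowtie2, without their roles. The deposited columns are a tag count (whole tags in the region), a score (the negative log10 of p, times 10), a fold (ratio to local background) and a false discovery rate in percent. Scores and folds are the authors' and were not recomputed.

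The summit was taken as start plus summit minus 1 and set against RefSeq gene ends of GRCm38.p6, mitochondrial genes left out. Peaks were shared where they overlapped by at least 1 bp. Members within 500 kb of each other formed a cluster. Intervals are exact binomial. The distance and overlap steps were tested on simulated data. The tools were scipy 1.17.1, pandas 2.3.3, Biopython 1.88, matplotlib 3.10.9 and numpy 2.4.6 in Python 3.11.15.

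The members and gene lists were chosen with earlier results of these data known, and no test was made over them. The text names members with a boundary peak or a summit within 5 kb, the 5 nearest others at each time, set replacement histone genes, and listed genes with a peak. Zfp184, Ppia, Npat, Slbp, Macroh2a1, Cenpa and the tRNA gene n-TMcat10 were named after their values were seen. Listed variants that are members were left out of the list of variants. Protein identity, input reads and the sequence under the peaks were not analysed here.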

Additional observations from a re-analysis of the deposited data

How the results depend on the processing

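Most values did not depend on the distance or on how a peak was placed. At T12h the count of histone genes with a boundary peak rose from 1 to 3 at 5 kb and to 2 with histone pseudogenes added, while the peak behind it stayed 1 in number. At T48h the count of 4 genes rose to 5 at 2 kb, at 5 kb, and when any base of the peak within 1 kb was enough. The added gene was H3c4, 1190 bp from the summit in H2ac7, so the lack of an H3 gene depends on these choices. The T48h count fell to 2 when each peak counted for the nearest protein-coding gene alone, since each peak then counts for 1 gene. In the upper 50% of each list by score, and among peaks with a false discovery rate of at most 5%, there were 0 histone genes and 0 histone peaks at T12h and at T48h. This follows from the ranks and rates of the peaks given above, and the share of all protein-coding genes under these cuts was not computed. Of 38 recomputed counts, 27 stayed within 1.5 times the main count and 11 moved. Members by symbol alone, an alternative chosen after seeing the data, gave the same counts, since no gene added by an older name had a boundary peak. Shared histone peaks stayed at 0 under both other rules, since the nearest summits of the other time were 210 and 1630 kb away. These outcomes are among the 27 and could not have differed. On the strand of the gene alone, ATGCAAAT was found in 8 and TTTCGCGC in 5 member windows. The peaks hold 23 to 33 tags each, which limits what can be said of them. No paired analysis was possible because there is only a single ChIP library at either time.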

Other observations

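The annotation holds 1576 protein-coding genes under 1 kb in length, of which 62 are histone genes. At T48h 2 of these short genes held a whole peak within their ends, and they were H2ac7 and H2ac8. At T12h no short protein-coding gene held a whole peak, and H2ac14, at 360 bp, is annotated as a pseudogene. This count was made after the positions of the histone peaks had been seen, and no test was made on it.

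In the first histone cluster on chromosome 13, a T48h peak (chr13:21931070-21931328) had its summit in n-TMcat10, a methionine tRNA gene, 93.7 kb from the nearest histone gene. It held 25 tags with a fold of 15.48 and a score of 71.61, the highest fold of any peak within the histone clusters at either time, and it overlapped no T12h peak. In the same cluster, the boundary peak of Zfp184 had folds of 12.41 at T12h and 8.67 at T48h.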
